A study of Mus musculus with 6 samples.

Results

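Brush border enzymes and nutrient transporters of the small intestine were examined in sorted Paneth cells (PCs), which secrete antimicrobial granules at the crypt base. The genes were 10 of 55414 in the count table, taken from a named list by Ensembl identifier: Sis, Lct, Anpep, Alpi, Vil1, Cubn, Slc34a2, Slc5a1, Slc2a2 and Slc15a1. They were picked with their TNF and PBS values in view, so those values are given as a description, without a test. PCs came from the small intestine of C57BL/6J mice labelled IFNAR1 KO, knockouts of a type I interferon receptor subunit gene, 15 h after injection of tumor necrosis factor (TNF, n = 3) or of phosphate-buffered saline (PBS, the control, n = 3). Controls and treated mice carried the same knockout. Whether each library came from a single mouse or from a pool was not established here, so n counts libraries. The labels give no age, sex, dose, litter or gating markers. The comparison addressed how the PC transcriptome differed after TNF.

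Absorptive enterocytes carry a brush border, a dense layer of actin-cored microvilli on the surface facing the gut lumen. Its membrane holds enzymes that finish the digestion of sugars, peptides and phosphate esters, and carriers and receptors that take up the products. These proteins are made as enterocytes mature on the villus, and most of them mark absorptive cells rather than PCs.

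Total counts were 12747484 to 17039511 per library. Of 13026 tested genes, 0 passed a Benjamini-Hochberg adjusted p of 0.05 (5%) in edgeR's quasi-likelihood test. The smallest adjusted p was 0.27, while 1596 genes were at an unadjusted p under 0.05, 1075 of them higher and 521 lower in TNF. By limma-voom 0 genes passed, with 1670 at an unadjusted p under 0.05, and by DESeq2 253 passed. TNF replicate 1 stood apart from the other TNF libraries. On the first principal component (48.9% of the variance) it lay at -39.3, beside the PBS libraries at -35.8 to -28.7, whereas TNF replicates 2 and 3 lay at 63.0 and 73.1. Without it, 1980 of 13660 genes (14.5%) passed. Y-linked reads were found in PBS replicate 3 and TNF replicate 3 (846 and 669 counts of 4 genes) and numbered 0 to 2 elsewhere. Xist, made by the inactive X chromosome, was at 9.39 CPM in PBS replicate 3 and at 191 CPM in TNF replicate 3. Both libraries thus held reads of both kinds, with Xist lower in PBS replicate 3. Lyz1, the PC lysozyme, was at 171424 ± 18817 CPM (read counts scaled to library sizes corrected by the trimmed mean of M-values, TMM) in PBS and at 192238 ± 50770 in TNF (SD, n = 3 each, adjusted p 0.938), and Mmp7, a PC protease, was at 6135 ± 676 and 11332 ± 3391 (adjusted p 0.429). Ifnar1 was at 7.86 ± 2.34 and 8.54 ± 3.82 CPM (adjusted p 0.925), and its gene-level count does not show whether the deleted part was transcribed.

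The stretches just upstream of 5 of these genes are shown first, for the digestive enzymes whose windows held motifs of enterocyte factors (Sis, Lct, Alpi) and for the pair of genes with no count in any TNF library (Cubn, Slc34a2). They are the 250 bases before the RefSeq start, from the RefSeq promoter table of GRCm38.p6, written 5′ to 3′ on the gene's strand. Each matched GRCm39 once, at chr3:72875197-72875446 (minus strand) for Sis, chr1:128256056-128256305 (minus) for Lct, chr1:87029329-87029578 (minus) for Alpi, chr2:13496688-13496937 (minus) for Cubn and chr5:53206445-53206694 (plus) for Slc34a2. The Sis, Lct and Alpi windows end at the GENCODE gene start. The Slc34a2 window lies 11272 bases inside the GENCODE gene, at a later annotated start. Capitals mark matches on either strand to short motifs of factors known to act on enterocyte genes. The letters GTTAAT were searched first. For GATA factors it was AGATAA, with TGATAA searched besides. For CDX factors it was TTTAT, for HNF4 it was CAAAGTC, and for the TATA box it was TATAAA, which holds a reverse TTTAT match.
Sis: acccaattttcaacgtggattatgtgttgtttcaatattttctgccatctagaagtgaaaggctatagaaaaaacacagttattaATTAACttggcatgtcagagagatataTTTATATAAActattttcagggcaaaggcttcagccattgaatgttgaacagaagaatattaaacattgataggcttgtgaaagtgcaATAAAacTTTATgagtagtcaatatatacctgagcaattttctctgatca
Lct: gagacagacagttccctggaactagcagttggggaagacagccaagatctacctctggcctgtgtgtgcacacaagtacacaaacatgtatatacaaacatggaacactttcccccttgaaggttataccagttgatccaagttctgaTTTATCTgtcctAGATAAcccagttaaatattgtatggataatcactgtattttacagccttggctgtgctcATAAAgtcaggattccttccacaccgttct
Alpi: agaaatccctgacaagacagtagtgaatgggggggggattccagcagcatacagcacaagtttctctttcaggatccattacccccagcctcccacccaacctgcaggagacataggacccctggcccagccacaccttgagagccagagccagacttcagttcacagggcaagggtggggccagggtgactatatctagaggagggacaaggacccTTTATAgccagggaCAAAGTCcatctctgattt
Cubn: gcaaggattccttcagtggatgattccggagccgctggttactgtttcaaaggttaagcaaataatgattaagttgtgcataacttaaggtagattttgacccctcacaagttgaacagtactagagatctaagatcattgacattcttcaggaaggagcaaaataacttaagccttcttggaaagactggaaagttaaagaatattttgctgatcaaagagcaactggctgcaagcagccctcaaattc
Slc34a2: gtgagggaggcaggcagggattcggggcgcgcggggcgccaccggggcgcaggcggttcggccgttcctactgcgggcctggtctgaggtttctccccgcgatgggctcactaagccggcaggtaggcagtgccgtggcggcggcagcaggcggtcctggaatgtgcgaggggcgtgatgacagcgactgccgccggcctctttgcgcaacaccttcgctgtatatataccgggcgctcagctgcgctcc
The Sis stretch was the most AT-rich of these, at 31.6% GC, followed by Cubn at 39.6%, Lct at 42.8%, Alpi at 54.4% and Slc34a2 at 69.6%. In the Sis window a GTTAAT match on the opposite strand began 165 bases before the start, and TTTAT matches lay at -138, -133, -50 and -43, of which -138 and -133 overlapped TATAAA matches. The Lct window held AGATAA at -101 and -90 and TTTAT at -102 and -30. The Alpi window held TTTAT at -33, overlapping TATAAA, and CAAAGTC at -19. Over windows of 250 bases before to 50 after the start, 4 of the 10 genes held any of the 6 motifs (Sis, Lct, Alpi and Slc2a2), against 50.1% of 32851 promoters in the table. TTTAT was in 3 of 10 windows and 40% of all promoters, TATAAA in 2 of 10 and 13.6%. GTTAAT was in 1 of 10 windows and 7.1% of all promoters, and the HNF4 motif in 1 of 10 and 4.44%, while AGATAA and its variant TGATAA were each in 1 of 10, against 11.2% and 9.05%. A match is a string of letters and was not tested for binding.

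Among the digestive enzymes, the disaccharidases Sis and Lct and the phosphatase Alpi were lower in every TNF library than in any PBS library. Sis (chr3:72795890-72875196, minus strand), which splits sucrose and starch-derived sugars, was at 8.21, 9.52 and 12.7 CPM in PBS replicates 1 to 3 and at 5.69, 1.51 and 2.89 CPM in TNF replicates 1 to 3. Its means were 10.1 ± 2.3 and 3.36 ± 2.13 CPM (SD, n = 3), a log2 fold change of -1.61 (SE 0.47). TNF replicate 1 was the closest of the treated libraries to PBS, and without it the log2 fold change was -2.21 (SE 0.40). RNA of sorted cells was measured in bulk, so fewer cells of a type and less RNA per cell cannot be told apart here or below.

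Lct (chr1:128212493-128256055, minus strand), lactase, was counted 6, 49 and 59 times in PBS and 3, 0 and 0 times in TNF, or 0.432, 3.26 and 4.33 against 0.255, 0 and 0 CPM. PBS replicate 1 lay close to TNF replicate 1, and the gene did not pass the filter on low counts. The TNF to PBS ratio of its depth-scaled counts was 0.025 (95% exact interval 0.00509 to 0.075, counting error only). Alpi (chr1:87025724-87029328, minus strand), intestinal alkaline phosphatase, was counted 8, 26 and 11 times in PBS and 1, 1 and 0 times in TNF. It also missed the filter, and its ratio was 0.0423 (0.00497 to 0.162). Its relatives Akp3 and Alppl2 had 4 counts each over all libraries, all in PBS, and reads shared between the 3 genes would make each uncertain.

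Anpep (chr7:79471551-79510807, minus strand), aminopeptidase N, which trims peptides from their amino end, was far more abundant. It was at 195, 110 and 78.8 CPM in PBS and at 93.0, 55.9 and 36.6 CPM in TNF. The groups overlapped, because TNF replicate 1 lay above PBS replicate 3. The log2 fold change was -1.05 (SE 0.41), or -1.44 (SE 0.36) without TNF replicate 1. Without PBS replicate 1, the highest library, it was -0.61.

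**Figure D1:**
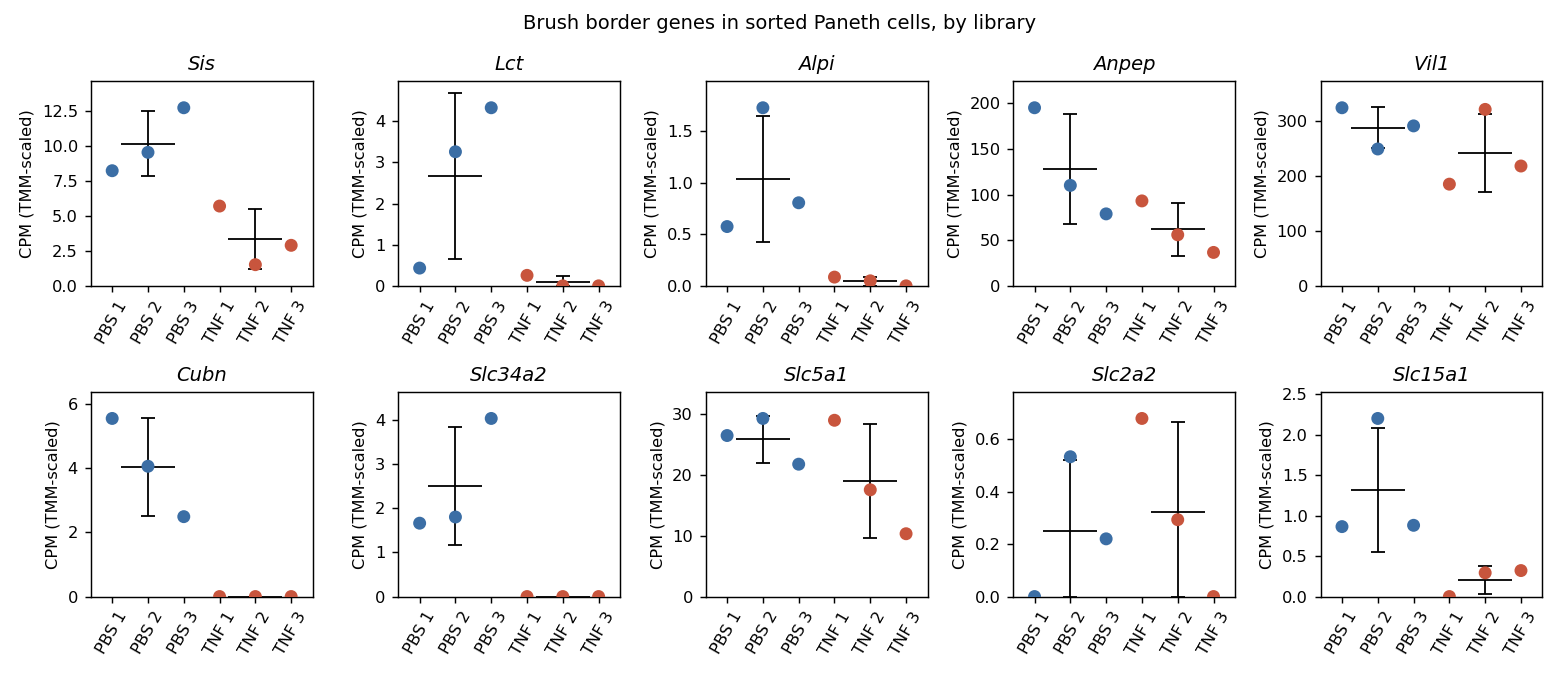
CPM of each gene (y axis, TMM-scaled, each panel starting at 0) in the 3 PBS (blue) and 3 TNF (red) libraries; points are libraries, the horizontal line is the group mean and the bar its SD, drawn no lower than 0. Cubn and Slc34a2 sit at 0 in all 3 TNF libraries, while Vil1, Slc5a1 and Slc2a2 overlap between groups.

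Of the uptake receptors and carriers, Cubn and Slc34a2 had no read in any TNF library. Cubn (chr2:13281149-13496624, minus strand), cubilin, is the ileal receptor for cobalamin (vitamin B12) bound to intrinsic factor. It was counted 77, 61 and 34 times in PBS, which is 5.55, 4.06 and 2.49 CPM, and 0 times in each TNF library, TNF replicate 1 included. Taking 3 counts per library as the limit that a count of 0 allows (0.146 to 0.255 CPM), Cubn was at least 18.8-fold lower. An antisense long noncoding gene that overlaps it, Gm13270, was at 0.36, 0.666 and 0.513 CPM in PBS, against 0.679, 0 and 1.04 CPM in TNF, and whether counting used strand is not given in the sources used here.

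Slc34a2 (chr5:53195423-53229006, plus strand), a sodium-phosphate cotransporter, was counted 23, 27 and 55 times in PBS (1.66, 1.80 and 4.03 CPM) and 0 times in each TNF library, at least 11.7-fold lower. Of the 13026 tested genes, these 2 (0.0154%) were counted in all 3 PBS and in no TNF library, as were 55 genes of the whole table, mostly below the filter on low counts. Enpp7, an enzyme that splits sphingomyelin, and Apoc3, an apolipoprotein, named after their values were seen, were among those below the filter, with 6, 4 and 35 and with 9, 4 and 11 counts in PBS. Slc15a1 (chr14:121697033-121742845, minus strand), the carrier of di- and tripeptides PepT1, was at 0.864, 2.20 and 0.88 CPM in PBS, against 0, 0.293 and 0.321 CPM in TNF. Its groups did not overlap, but TNF held 10 counts in all. Here TNF replicate 1 was the lowest library. Cubn, Slc34a2 and Slc15a1 passed the low-count filter through the PBS libraries alone.

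The sugar carriers differed from these. Slc5a1 (chr5:33261563-33320214, plus strand), the sodium-glucose cotransporter SGLT1, was at 26.4, 29.2 and 21.7 CPM in PBS and at 28.9, 17.5 and 10.3 CPM in TNF. TNF replicate 1 lay inside the PBS range and the other TNF libraries lay below it. The log2 fold change of Slc5a1 was -0.45 (SE 0.34) over 6 libraries and -0.86 (SE 0.27) without TNF replicate 1, and it shrank to -0.15 without TNF replicate 3. Slc2a2 (chr3:28752051-28785508, plus strand), the facilitative glucose carrier GLUT2, was close to the detection limit in both groups, with 0, 8 and 3 counts in PBS and 8, 6 and 0 in TNF. Its depth-scaled count ratio was 1.21 (95% exact interval 0.511 to 2.95), so a difference was not detectable at this depth.

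Vil1 (chr1:74448535-74475933, plus strand), villin, bundles the actin core of microvilli and is made by most epithelial cells of the intestine. It was at 324, 249 and 291 CPM in PBS and at 185, 321 and 218 CPM in TNF. TNF replicate 2 lay within the PBS range, and TNF replicates 1 and 3 lay below it. Its log2 fold change, -0.25 (SE 0.27), was smaller than its error, and it was -0.07 without TNF replicate 1 and -0.55 without TNF replicate 2. Usp37 overlaps Vil1 on the opposite strand and was at 18.4 ± 2.03 CPM in PBS, against 14.4 ± 6.24 CPM in TNF.

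In 6 of the 10 genes (Sis, Lct, Alpi, Cubn, Slc34a2 and Slc15a1), all TNF libraries lay below all PBS libraries. Of the 7 genes that passed the low-count filter, 4 showed this, beside 7.82% of the 13026 tested genes. Among these 4, Cubn, Slc34a2 and Slc15a1 passed the filter through the PBS libraries alone, so the shares do not show an excess. In Anpep and Slc5a1, TNF replicates 2 and 3 lay below every PBS library and TNF replicate 1 did not, beside 14.2% of tested genes. The 7 log2 fold changes were all below 0, with a median of -1.61, the value of Sis. Setting Cubn and Slc34a2 at their bounds could not move that median, since both stay below Sis. The median of all tested genes was -0.000587. None of the 7 passed 5% over 6 libraries, beside 0% of tested genes. Over all genes, 5.40% were lower past 5% without TNF replicate 1, and 0.251% of those with an adjusted p were lower by DESeq2. Since the 10 genes were picked on this contrast, their own calls in these settings are not counted. The shares above are a description only.

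**Figure D2:**
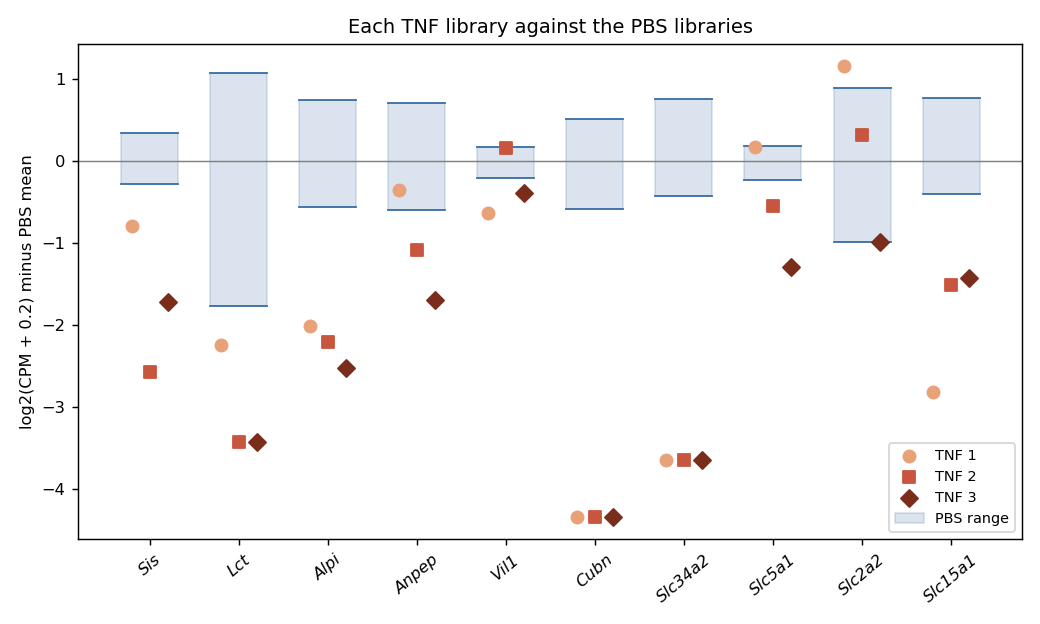
Each TNF library (points) against the PBS libraries (shaded span from lowest to highest) for the 10 genes on the x axis; the y axis is log2(CPM + 0.2) minus the PBS mean of that value. Sis, Lct, Alpi, Cubn, Slc34a2 and Slc15a1 have every TNF point below the span, and TNF replicate 1 is inside it for Anpep and Slc5a1 and above it for Slc2a2.

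The TNF libraries differed among themselves in these genes. TNF replicate 3 had no count for 5 of the 10, and TNF replicates 1 and 2 for 3 each, whereas PBS replicate 1 missed Slc2a2 and the other PBS libraries missed no gene. Summed over the 10 genes, CPM was 563, 412 and 417 in PBS and 314, 397 and 269 in TNF. Vil1 and Anpep made up most of that sum. Without them it was 43.7, 52.3 and 47.2 CPM in PBS, against 35.6, 19.7 and 13.5 CPM in TNF, with all TNF libraries lower and TNF replicate 1 nearest to PBS.

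**Figure D3:**
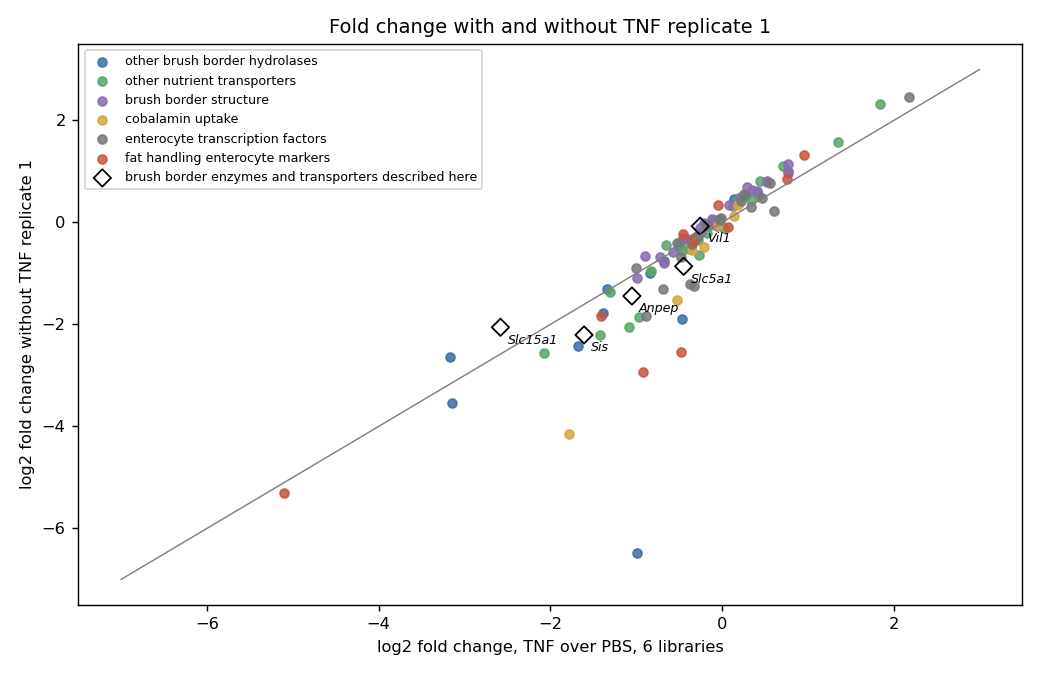
Log2 fold change of TNF over PBS from all 6 libraries (x axis) and without TNF replicate 1 (y axis) for tested genes of the lists (colored points) and for 5 of the enzymes and transporters (open diamonds); the line marks equal values, and Cubn and Slc34a2, at 0 in TNF, are not drawn. Sis, Anpep and Slc5a1 lie below the line and Slc15a1 and Vil1 above it, and the lowest point is Mme.

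Levels between genes were compared as CPM per kilobase of merged exons in PBS. Vil1 was the highest at 59.4 ± 7.71 (SD, n = 3), then Anpep at 30.9 ± 14.5, Slc5a1 at 6.28 ± 0.92 and Sis at 1.36 ± 0.308. The PBS ranges of these 4 did not overlap. Slc34a2 at 0.498 ± 0.266, Alpi at 0.444 ± 0.262, Lct at 0.417 ± 0.314, Cubn at 0.27 ± 0.102 and Slc15a1 at 0.259 ± 0.151 followed, and each overlapped its neighbor. Slc2a2 was last at 0.0364 ± 0.0388. With the longest transcript as the length, Cubn and Slc15a1 changed places. In TNF, Vil1 was at 49.8 ± 14.6, Anpep at 14.9 ± 6.9, Slc5a1 at 4.61 ± 2.29 and Sis at 0.451 ± 0.285, in the order seen in PBS.

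Control libraries were uneven too. Between the lowest and the highest PBS library, Lct differed 10-fold, Alpi 3.0-fold, Slc15a1 2.54-fold, Anpep 2.48-fold, Slc34a2 2.43-fold, Cubn 2.22-fold and Sis 1.55-fold. Slc5a1 differed 1.34-fold and Vil1 1.30-fold. PBS replicate 1 was the highest PBS library for Anpep, Cubn and Vil1 and the lowest for Lct and Sis, so the genes did not share an order of the control libraries. It was also lowest for Slc34a2 and Alpi, but by few counts (23 against 27 in PBS replicate 2, and 8 against 11 in PBS replicate 3). For Slc15a1, PBS replicates 1 and 3 held 12 counts each.

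The mean centered log2 CPM of the 10 genes was 0.693, 1.32 and 1.07 in PBS and -0.692, -1.04 and -1.35 in TNF. Among 9763 other genes, the patterns most like it over the 6 libraries, by Pearson's r, were those of Neurl4 (r = 0.990), Ano7 (0.988), Myo6 (0.986), Cabin1 (0.984) and Zscan29 (0.983). These libraries share a treatment and the scaling, and r is a description. Ano7 was at 57.4, 76.7 and 68.4 CPM in PBS, against 31.8, 33.6 and 24.4 CPM in TNF. Myo6 is the motor that moves toward the base of microvilli. It was at 217, 251 and 233 CPM in PBS, against 187, 184 and 174 CPM in TNF. Both genes were picked for likeness to a profile lower in TNF, so their lower values there are no separate finding.

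Other brush border hydrolases were lower in 10 of 12 tested genes (18 listed), with a median log2 fold change of -0.92. None passed 5% by edgeR over 6 libraries (5 lower and 0 higher at an unadjusted p under 0.05). By DESeq2 3 were lower, beside 0.251% of all genes with an adjusted p. Over all 13026 tested genes, 521 were lower and 1075 higher at that unadjusted p in edgeR, to be set beside the counts of the lists below too. Enpep, glutamyl aminopeptidase, was at 3.53, 4.20 and 2.20 CPM in PBS, against 0.594, 0.488 and 0 CPM in TNF (log2 ratio of TNF to PBS -3.15, SE 0.88, adjusted p 0.278, 0.00595 to 0.897 over the alternatives). Naaladl1, a dipeptidase, was at 11.7, 9.19 and 6.67 against 5.35, 2.73 and 2.49 CPM (-1.39, SE 0.40, adjusted p 0.278, 0.00888 to 0.897). Neither of them overlapped between groups. Without TNF replicate 1 the median was -1.54, and 6 of 13 genes were lower past 5% and 0 higher, with Dpp4, Mme, Enpep, Naaladl1 and Mep1b among the 6, beside the 5.40% given above. Mme, neprilysin, named after its values were seen, was at 6.99, 5.86 and 5.57 CPM in PBS and at 9.33, 0.0976 and 0 CPM in TNF, so TNF replicate 1 was above every control and the other TNF libraries were near or at 0.

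Other nutrient transporters did not move in 1 direction. Of 26 tested genes (36 listed), 16 were lower and 10 higher, with a median of -0.23, and 0 passed 5% (4 lower and 1 higher at an unadjusted p under 0.05; 0 by DESeq2). The median was 0.0148 among genes with a mean of at least 5 CPM. Slc39a4, the zinc importer ZIP4, was at 29.2, 17.0 and 17.9 CPM in PBS, against 19.5, 141 and 69.1 CPM in TNF (log2 ratio of TNF to PBS 1.85, SE 0.58, adjusted p 0.297, 2.6e-08 to 0.897 over the alternatives). TNF replicate 1 lay in the PBS range. Slc26a6, an anion exchanger, was at 4.39 ± 1.14 and 1.76 ± 0.416 CPM (-1.31, SE 0.45, adjusted p 0.324). Slc7a8, a carrier of neutral amino acids, was at 8.20 ± 1.75 and 3.08 ± 2.34 CPM (-1.42, SE 0.51, adjusted p 0.330). Without TNF replicate 1, Slc7a8 and Slc16a10 were lower past 5% and Slc43a2, Slc23a2 and Slc39a4 higher, of 28 tested, beside 5.40% lower and 9.10% higher among all genes.

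Genes that build the brush border were split as well. Of 24 tested structural genes (25 listed), 14 were lower and 10 higher, the median was -0.11, and 0 passed 5% (4 lower and 2 higher at an unadjusted p under 0.05; 0 by DESeq2). Baiap2l2, a membrane-bending protein of microvilli, was at 27.4 ± 2.99 CPM in PBS, against 17.2 ± 3.13 CPM in TNF (log2 ratio of TNF to PBS -0.67, SE 0.22, adjusted p 0.308). Cdhr2, a protocadherin that links microvillar tips, was at 258 ± 35.3 and 156 ± 30.5 CPM (-0.72, SE 0.24, adjusted p 0.314). Ezr, which ties the membrane to actin, was at 159, 127 and 136 CPM in PBS, against 179, 231 and 310 CPM in TNF (0.77, SE 0.26, adjusted p 0.317), the opposite direction. Without TNF replicate 1 the median was 0.0132, Baiap2l2 was lower past 5%, and Ezr, Myo5b, Stx3, Rab11a and Cobl were higher (1 and 5 of 24, beside 5.40% lower and 9.10% higher among all genes).

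Around Cubn, the cobalamin genes were 5 lower and 2 higher of 7 tested, with a median of -0.21 and 0 past 5% (0 at an unadjusted p under 0.05; 0 by DESeq2). Cblif, intrinsic factor, was at 2.09, 2.33 and 2.71 CPM in PBS, against 1.87, 0.0976 and 0.161 CPM in TNF (log2 ratio of TNF to PBS -1.79, SE 0.98, adjusted p 0.488). Without TNF replicate 1 it was the only gene of this list past 5% (1 of 7, lower, beside 5.40%). Tcn2, the blood carrier of cobalamin, was at 23 ± 4.44 and 18.1 ± 6.41 CPM (-0.35, SE 0.30, adjusted p 0.674), and Lmbrd1, its lysosomal exporter, at 35.5 ± 4.64 and 40.3 ± 7.51 CPM (0.18, SE 0.22, adjusted p 0.768). Amn, the membrane partner of cubilin, was named after its values were seen. It was at 3.39, 3.00 and 2.49 CPM in PBS, against 4.24, 1.42 and 0.563 CPM in TNF, so it was present in TNF libraries in which Cubn was at 0. Lrp2, the other partner, had a count of 0 in every library.

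All 22 listed enterocyte transcription factors were tested, 15 lower and 7 higher, with a median of -0.23 and 0 past 5% (1 lower and 1 higher at an unadjusted p under 0.05; 0 by DESeq2). Creb3l3, a regulator of lipid metabolism, was at 0.288, 0.599 and 1.03 CPM in PBS, against 1.78, 4.44 and 2.49 CPM in TNF (log2 ratio of TNF to PBS 2.18, SE 0.68, adjusted p 0.297). Elf3 was at 141 ± 19.5 and 97.7 ± 14.5 CPM (-0.53, SE 0.22, adjusted p 0.387), and Klf4 at 50.8 ± 7.47 and 36.6 ± 10.5 CPM (-0.48, SE 0.25, adjusted p 0.471). Without TNF replicate 1, Gata4, Hes1 and Vdr were lower past 5% and Creb3l3 higher (3 and 1 of 22, beside 5.40% and 9.10% of all genes). A pair of factors whose motifs were searched above, and Gata4, were named after their values were seen. Cdx2 was at 52.7 ± 9.49 and 51.9 ± 6.48 CPM, and Hnf4a at 206 ± 32.2 and 161 ± 24.7. Gata4 was at 27.9, 20.9 and 21.8 CPM in PBS and at 25.5, 6.98 and 5.87 CPM in TNF, with TNF replicate 1 again in the PBS range.

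**Figure D4:**
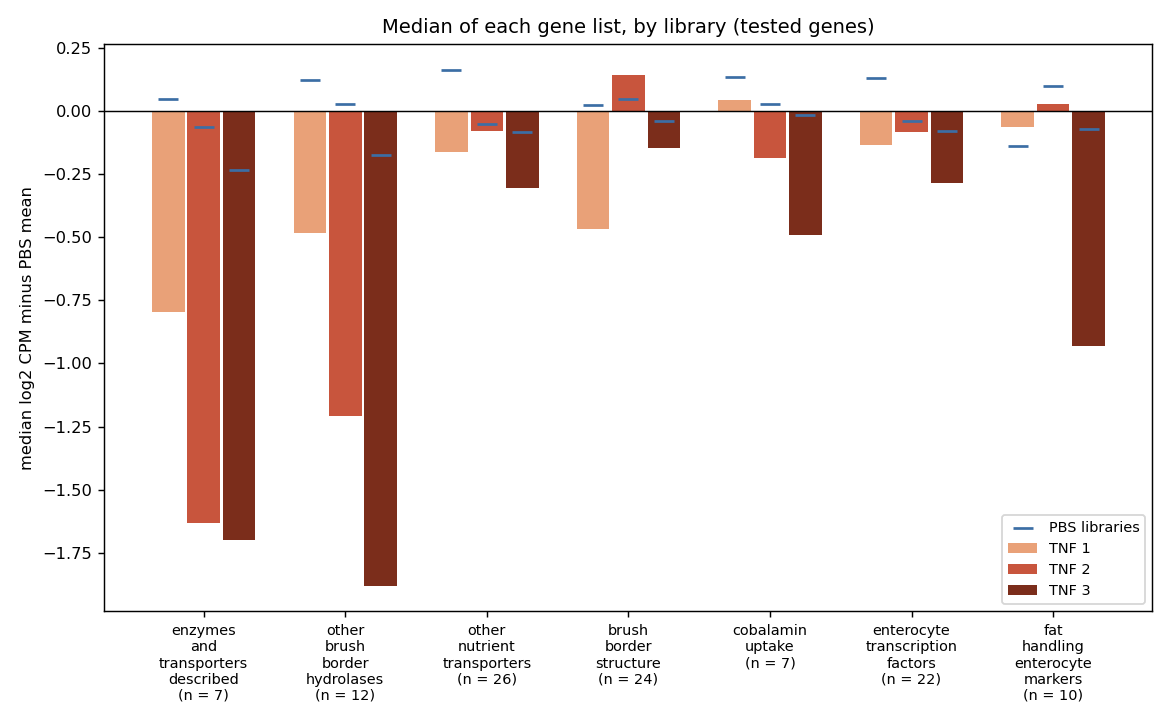
Median over tested genes of log2 CPM minus the PBS mean (y axis) for the enzymes and transporters and 6 related lists (x axis, n genes tested); bars are TNF libraries and blue dashes PBS libraries. The enzymes and transporters are at -0.796, -1.63 and -1.70 and the other hydrolases at -0.484, -1.21 and -1.88 in TNF replicates 1 to 3, and the other 5 lists drawn lie between -0.93 and 0.143.

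Fat-handling genes mark the same absorptive cells by another function. Of 10 tested (15 listed), 7 were lower and 3 higher, with a median of -0.40. By edgeR 0 passed 5% (2 lower and 0 higher at an unadjusted p under 0.05). By DESeq2 3 were lower, beside 0.251% of all genes with an adjusted p. Apoa1, the main protein of high-density lipoprotein, was at 14.8, 8.72 and 8.51 CPM in PBS, against 0.424, 0.439 and 0 CPM in TNF (log2 ratio of TNF to PBS -5.11, SE 0.69, adjusted p 0.270, 2.43e-15 to 0.677 over the alternatives). Apob, the scaffold of chylomicrons, was at 49.1, 97.0 and 98.0 against 47.5, 26.0 and 18.7 CPM (-1.41, SE 0.38, adjusted p 0.278, 1.75e-05 to 0.897). Dgat2, which makes triglyceride, was at 2.95 ± 2.13 and 5.68 ± 4.77 CPM (0.96, SE 0.68, adjusted p 0.597). Summed CPM of the list was 283, 308 and 309 in PBS and 333, 109 and 77.2 in TNF. None of the 15 was at 0 in every library. The part of enterocyte content in the values above was not tested.

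Some markers of PCs and of other cells passed 5% once TNF replicate 1 was left out. Summed stem cell marker CPM was 2829 to 3463 in PBS and 4936, 1195 and 1025 in TNF replicates 1 to 3 (3 lower and 0 higher of 9 past 5% without TNF replicate 1, beside 5.40% and 9.10% of all genes). Olfm4, named after its values were seen, made up most of that sum in PBS and in TNF replicate 1. It was at 2371, 2219 and 1921 CPM in PBS and at 3882, 232 and 272 CPM in TNF. PC markers summed to 224891 to 275704 CPM in PBS and 176470 to 342184 in TNF (3 lower, 1 higher of 9), and goblet markers to 4918 to 5241 and 4047 to 4969 (5 lower, 0 higher of 8). The median log2 CPM of the goblet markers against the PBS mean was 0.0497, -1.59 and -0.917 in TNF replicates 1 to 3, so in TNF replicate 2 it lay close to that of the enzymes and transporters (-1.63). For PC markers this median was 0.404, -0.976 and -0.764, and for stem markers it was 0.0682, -0.519 and -0.64. Tuft markers summed to 508 to 1829 and 654 to 1256 CPM (0 of 10), and enteroendocrine markers to 34.9 to 169 and 31.8 to 125 (1 lower, 1 higher of 10). Immune markers were at 22.1 to 54.3 and 35.5 to 45.3 CPM, with 3 of 10 at 0 in every library, Cd3g and Nkg7 among them. Stroma, vessel and blood markers were at 0 to 0.666 and 0 to 0.39 CPM, with 6 of 9 at 0 throughout. Of the 48 genes of these lists tested over 6 libraries, PC markers included, 0 passed 5% by edgeR. At an unadjusted p under 0.05, 2 were lower and 2 higher, 1 of the latter a PC marker, beside 521 and 1075 of 13026 tested genes. By DESeq2 1 was lower, the goblet gene Klk1, beside 0.251% of all genes with an adjusted p. The part of these markers in the values above was not tested.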

How the data were processed

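RNA of sorted PCs was sequenced single-end on an Element AVITI after column purification. The authors deposited 1 table of raw counts per Ensembl gene for 6 libraries. The submitters' processing notes name FastQC, Trimmomatic 0.39, STAR 2.7.10a, DESeq2 and mm39. With the counter, annotation and strand setting not given in the sources used here, overlapping and near-identical genes are uncertain. Of 55414 identifiers, 54749 matched GENCODE M39 (GRCm39); the rest held 0.0193% of counts. All 10 genes matched. No per-sample column was unused.

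Counts were fitted in R 4.3.3 with edgeR 4.0.16 (filterByExpr with minimum count 10 and total 15, TMM factors, quasi-likelihood test, two-sided, group as the only term), and SE was the fold change over the square root of F. CPM used TMM-scaled sizes. Scripts were tested on simulated data with 200 changed genes. The genes described and all lists were chosen with earlier results of these data known. Named genes were the 10 genes, the 3 smallest p-values of each pathway list and the fat-handling list, the 5 most similar patterns (average log2 CPM of at least 2, prior count 2), Lyz1, Mmp7 and Ifnar1. Others are said to be named after their values were seen. Some list genes, including 1 that this rule names, are not reported here. Alternatives were other scalings and filters, each library left out, a replicate block, DESeq2 1.42.0 and limma-voom (limma 3.58.1). Floors (3 counts) and 95% exact intervals cover counting error only. Replicate libraries were not duplicates of each other. GENCODE lengths and positions are for GRCm39, and promoter sequences are RefSeq's.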

Additional observations from a re-analysis of the deposited data

How the results depend on the processing

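The count of genes past 5%, 0 in edgeR over 6 libraries, was 690 without a low-count filter (491 higher, 199 lower) and 253 by DESeq2 (216 higher, 37 lower). With 1 library left out it ranged from 0 to 1980, and the upper value was that without TNF replicate 1. The median log2 fold change of the 10 genes, -1.61 over 7 tested, was -2.13 without a filter (10 genes), -0.753 at a mean of at least 5 CPM (4 genes) and -2.14 by DESeq2. It was -2.98 to -1.45 with 1 library left out, where up to 9 genes were tested. The 7 tested genes had log2 fold changes below 0 in all 95 alternative values, 90 of them within 1 SD. The settings reuse the same libraries and the genes were picked on this contrast, so that shared sign is a description only. With no count in any TNF library, Cubn and Slc34a2 could have no other sign. The transporter median was -0.413 without a filter, 0.0148 at a mean of at least 5 CPM and -0.400 by DESeq2, and it was -0.349 to -0.0659 with 1 library left out. With 1 library left out, medians were -1.54 to -0.733 for the other hydrolases, -0.321 to 0.0132 for structural genes, -0.478 to -0.0665 for cobalamin genes, -0.291 to -0.0807 for transcription factors and -0.594 to -0.0993 for fat-handling genes. The cause of these shifts was not tested beyond the genes and libraries each setting leaves out. Scaling by library size alone moved the median of all tested genes from -0.000587 to -0.108.

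Same-numbered PBS and TNF libraries did not deviate together (r = -0.0128, -0.0748 and 0.0311 over genes), and the labels do not tie a number to a litter or day, so the numbers were not taken to pair mice. Replicate 3 was, however, the number with Y-linked reads in both groups. With the replicate number as a block, 0 genes passed 5% in edgeR (1395 at an unadjusted p under 0.05), and the median was -1.76 for the 10 genes and -1.26 for the other hydrolases. At these depths a count of 0 allows 0.146 to 0.255 CPM, which limits Lct, Alpi, Slc2a2 and Slc15a1 in TNF.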

Other observations

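Among PBS libraries, genes with a known place along the intestine differed without a common direction, and those below were named after their values were seen. Apoa4, an apolipoprotein of absorptive cells, was at 0.504 CPM in PBS replicate 1 and at 7.06 and 9.09 CPM in PBS replicates 2 and 3, and Fabp1, a fatty acid carrier, was at 0.576, 15.5 and 8.65 CPM. The ileal bile acid genes were highest in PBS replicate 1. Fabp6, the bile acid-binding protein, was at 6.12, 0.400 and 0.513 CPM in PBS replicates 1 to 3, and Slc10a2, the bile acid importer, was at 2.88, 0 and 0.367 CPM. Slc51a and Slc51b, the exporter subunits, were at 1.44, 0.333 and 0 CPM and at 2.02, 0.466 and 0.147 CPM. Cubn, also an ileal receptor, was highest in the same library (5.55, 4.06 and 2.49 CPM), and Lct lowest (0.432, 3.26 and 4.33 CPM). Other genes with a regional pattern went the other way. Slc34a2, ileal in mouse, was lowest in PBS replicate 1 (1.66, 1.80 and 4.03 CPM). Genes of the proximal intestine were highest there, with Slc2a5, the fructose carrier, at 19.2, 12.3 and 8.73 CPM, Gata4 at 27.9, 20.9 and 21.8 CPM and Apoa1 at 14.8, 8.72 and 8.51 CPM. In TNF replicates 1 to 3, Fabp6 was at 0.849, 0.146 and 0 CPM and Slc10a2 at 0.255, 0.927 and 0.563 CPM.

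Fabp2, a fatty acid carrier, was also named after its values were seen. It was at 69.7, 60.2 and 75.6 CPM in PBS and at 91.3, 6.83 and 11.1 CPM in TNF. TNF replicate 1 was above every PBS library and the other TNF libraries were below them. The same held for Dpp4, a dipeptidyl peptidase, at 19.9, 24.8 and 21.8 against 36.7, 7.37 and 4.26 CPM. Mgam, maltase-glucoamylase, was at 131 ± 8.56 CPM in PBS, against 158 ± 54.2 CPM in TNF (SD, n = 3), with a log2 fold change of 0.28 (SE 0.28), whereas its relative Sis was lower in every TNF library.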
